A study of Arabidopsis thaliana with 12 samples.

Results

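The XTH genes of *Arabidopsis thaliana* encode xyloglucan endotransglucosylase/hydrolases, and 33 of the 33602 genes in the deposited tables belong to the family. A gene was taken as a member where its symbol was XTH or ATXTH followed by a number, or where its putative function named a xyloglucan endotransglucosylase. The function text alone named 29 of the 33, and the symbols gave all of them, *XTH1* to *XTH33*. Of these, 29 had enough counts (edgeR's filterByExpr with a minimum of 10) and were tested. The other 4, *XTH1*, *XTH2*, *XTH3* and *XTH29*, had 0 to 5 counts in every library.

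Transcripts were sequenced from whole seedlings of 4 genotypes, 3 libraries each. WT was the accession Col-0. The *jazQ* line is mutant for 5 JAZ genes (*JAZ1*, *3*, *4*, *9* and *10*), each through a T-DNA insertion, the *phyB* line carries the *phyB-9* allele, and *jazQ phyB* is the line from their cross that carries all 6 mutations. About 200 seedlings were pooled for each library after 8 days in continuous light at 21 °C on plates with 0.8% sucrose. The seedlings were not dissected, so each value averages roots and shoots, and fewer cells of a type cannot be told apart from less RNA per cell. Every library of a mutant comes from the same line, so a mutation cannot be told apart from other differences that the line may carry.

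Xyloglucan is a β-glucan chain with xylose side chains that coats and ties cellulose in the primary wall of growing cells. XTH enzymes cut this chain and either rejoin the cut end to another xyloglucan, which lets a wall extend without losing its tethers, or, in a small subclade that holds *XTH31* and *XTH32*, are known or predicted to hydrolyse it. The photoreceptor phyB restrains elongation in light by inactivating PIF transcription factors, and several *XTH* genes are known targets of shade and auxin responses in seedlings. JAZ proteins repress MYC transcription factors of the jasmonate response.

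The stretch of coding DNA around the catalytic residues is given here for 7 members to which the results below return. It was found by a pattern that requires the 3 acidic residues and a leucine and glycine shortly after them. Part of the likeness of the stretches is therefore set by the search. The capitals mark the codons of the 3 acidic residues of the active site, 5′ to 3′ along the coding strand (RefSeq, TAIR10.1).
XTH4: catgacGAGataGACtttGAGttccttgga
XTH15: catgacGAGataGACtttGAGtttctaggt
XTH24: tgggatGAGattGATtttGAGttcttgggt
XTH20: tgggatGAAataGATtttGAGttcttggga
XTH31: cacgatGAGgtcGATatcGAGtttctaggg
XTH32: catgatGAGgtaGACataGAAtttttgggg
XTH33: cacgacGAGataGACataGAAttgttgggt
These lie at chr2:2764490-2764519 (plus strand, *XTH4*), chr4:8137782-8137811 (minus, *XTH15*), chr4:14820042-14820071 (minus, *XTH24*), chr5:19482562-19482591 (plus, *XTH20*), chr3:16447882-16447911 (minus, *XTH31*), chr2:15474073-15474102 (minus, *XTH32*) and chr1:3480306-3480335 (minus, *XTH33*). The pattern was found in 32 of the 33 members, each time as 1 match in an unbroken stretch of 30 bases, and not in *XTH11*. Of the 32 stretches, 12 open with the codon tgg, as in *XTH24* and *XTH20*, and 16 open with cat or cac. In 5 members, *XTH29* to *XTH33*, the codon before the last acidic residue is atc or ata, and in the other 27 it is ttt or ttc. *XTH15* differs from *XTH4* at 3 of the 30 bases and *XTH31* differs from it at 10. Over the aligned coding sequences, *XTH15* is 60.0% identical to *XTH4* and *XTH31* is 54.0% identical to it.

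Library totals ran from 12750074 to 26347184 counts, and 3 counts, taken as the floor of detection, equal 0.114 to 0.235 CPM, the count scaled to library size. Libraries of a genotype differed by more than sampling noise (chi-square per degree of freedom 2.21 to 14.2). All 12 were kept, without a check for outlying samples. *JAZ1* fell from 46.4–60.8 CPM in WT to 4.78–6.16 in *jazQ* and 5.44–7.17 in *jazQ phyB*. It was also lower in *phyB* than in WT, by a smaller log2 change of −0.73 ± 0.15 (SE; edgeR's test, adjusted p = 0.00278). *PHYB* was at 78.9–88.0 CPM in WT, 54.0–57.4 in *phyB* and 50.7–56.0 in *jazQ phyB*, and these counts do not read the allele itself.

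*XTH4* was the most abundant member in every genotype. In TPM, the unit of RSEM that is scaled for transcript length and can be compared between genes, its mean was 489 in WT, 459 in *jazQ*, 907 in *phyB* and 690 in *jazQ phyB* (n = 3 each). It was followed in WT by *XTH7* at 318 to 435 TPM, *XTH24* at 276 to 380, *XTH27* at 257 to 268, *XTH22* at 125 to 408 and *XTH9* at 210 to 252. The libraries of *XTH4* lay above those of every other member in WT, while those of *XTH7* and *XTH24* overlapped and those of *XTH22*, the touch-induced gene *TCH4*, spanned most of the ranks from second to sixth. These 6 members held 71.8 to 77.7% of the TPM of the family in every library. *XTH4* alone held 17.3 to 19.4% in WT and *jazQ*, 25.0 to 26% in *phyB* and 20.0 to 23.9% in *jazQ phyB*. At the other end, *XTH10*, *XTH11*, *XTH25* and *XTH33* had means under 5 TPM in every genotype, and *XTH1* was at 0 counts in all 12 libraries.

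**Figure D1:**
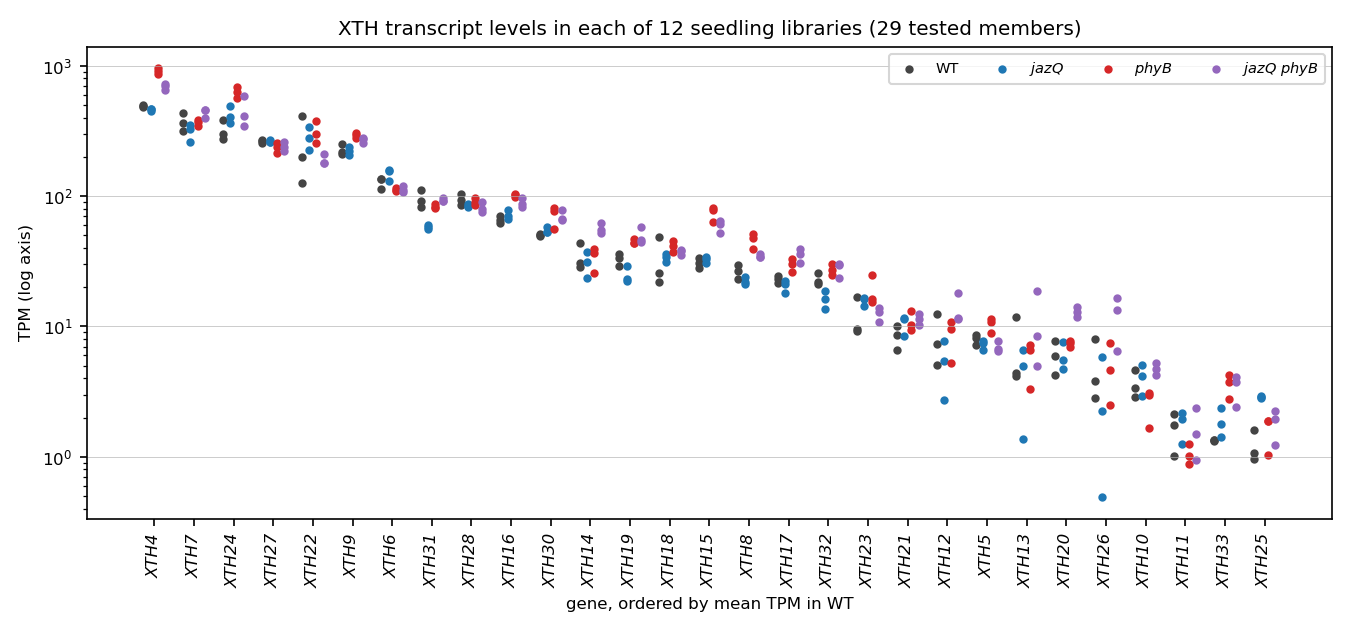
TPM (log axis) of the 29 tested members, ordered by their mean in WT, with each dot a library and each colour a genotype. *XTH4* stands highest with means of 489 TPM in WT and 907 in *phyB*, and *XTH26* and *XTH13* spread widest among libraries of 1 genotype.

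Summed over the 33 members, the family made up 2264 to 2548 CPM in WT, 2295 to 2383 in *jazQ*, 2698 to 3126 in *phyB* and 2536 to 2692 in *jazQ phyB*. The *phyB* sums were all above the WT sums, and the *jazQ* sums lay inside the WT range. The mean of the sum in *phyB* was 1.23 times that in WT on the CPM scale and 1.37 times on the TPM scale. In *jazQ phyB* the factors were 1.10 and 1.19, and in *jazQ* they were 0.996 and 1.00. In mean TPM, the sum was 2612 in WT and 3570 in *phyB*, while *XTH4* was at 489 and 907 and *XTH24* at 319 and 625. *XTH7* (372 and 368) and *XTH27* (263 and 236) did not rise with it. The sum was not tested.

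Changes were tested with edgeR's quasi-likelihood test, and genes with a Benjamini-Hochberg adjusted p below 0.01 over the 20957 genes tested were called. All adjusted p-values given here come from that test unless another is named. In *phyB* against WT, 6 of the 29 members tested were called higher and 2 lower, and 21 were not called. Among all genes tested the called shares were 4.7% higher and 7.06% lower. The median log2 change of the 29 members was 0.211 and that of all genes tested 0.007. On the log2(TPM + 1) scale the median of all genes shifts to 0.137 and that of the members to 0.333.

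**Figure D2:**
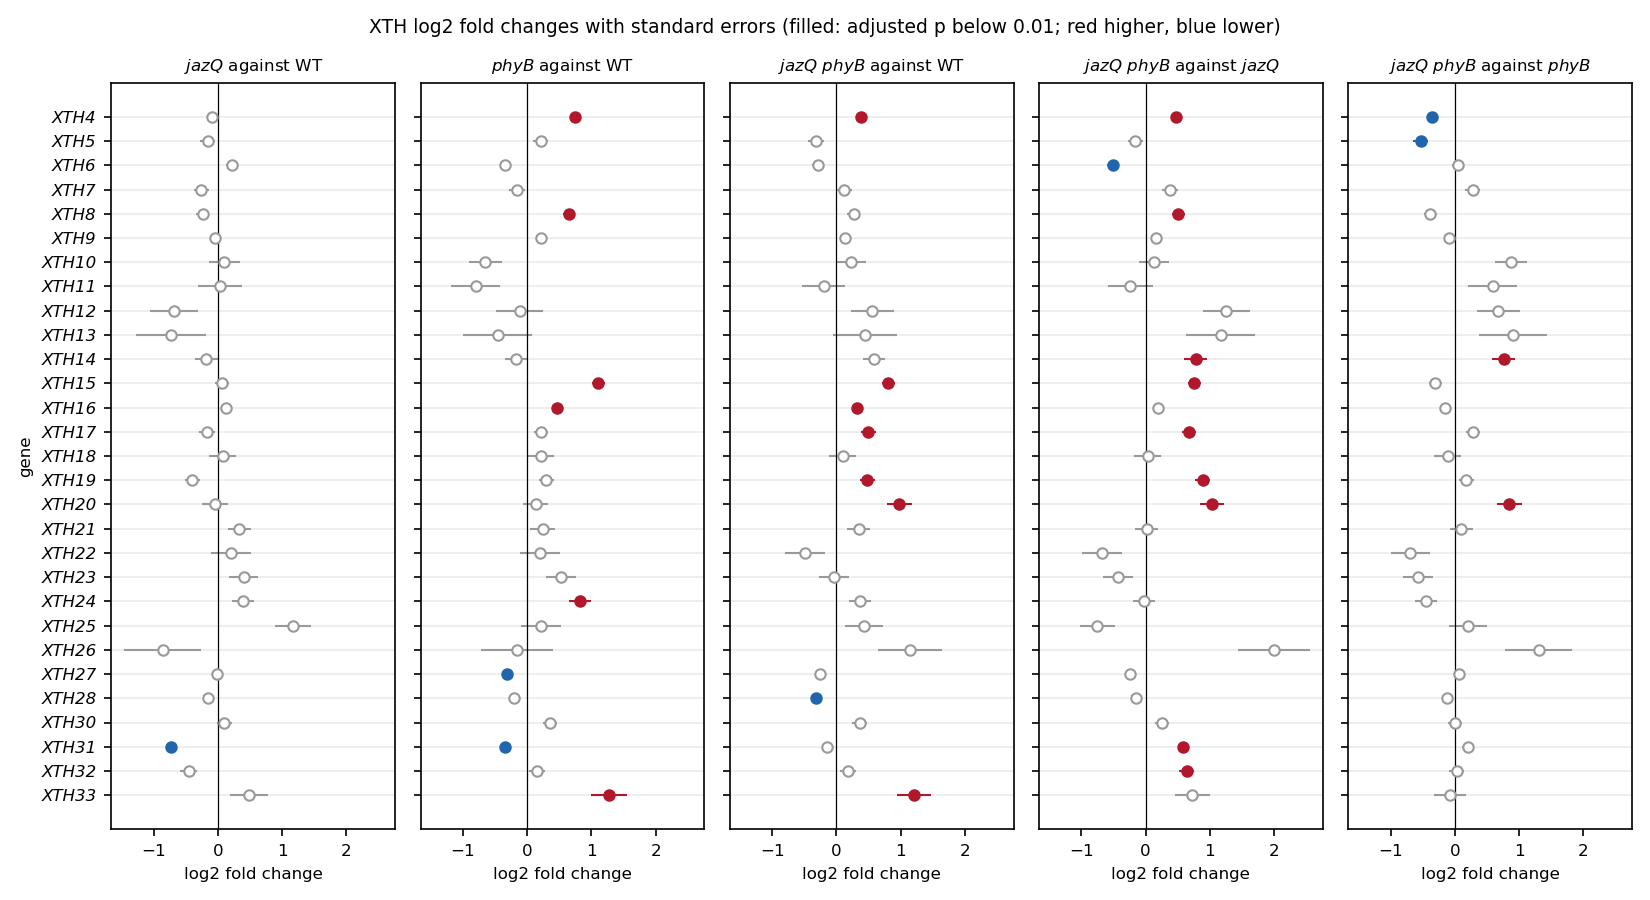
Log2 fold changes (points) with standard errors (bars) of the 29 tested members in 5 comparisons. Filled points have an adjusted p below 0.01, red for higher and blue for lower, and they number 1, 8, 8, 10 and 4 from the left panel to the right.

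*XTH15*, known as the shade marker *XTR7*, showed the largest called change in *phyB* after *XTH33*. Its CPM were 26.9, 22.8 and 25.6 in WT, 27.9, 24.6 and 26.1 in *jazQ*, 46.5, 57.0 and 60.0 in *phyB*, with 39.3, 46.1 and 47.8 in *jazQ phyB*. Every library with the *phyB* mutation was above every library without it. The change against WT was a log2 value of 1.11 ± 0.10 (SE) in *phyB* (2.16-fold, adjusted p = 7.18e-06) and 0.81 ± 0.10 in *jazQ phyB* (adjusted p = 0.000109). Between *jazQ phyB* and *jazQ* it was 0.76 ± 0.10 (adjusted p = 0.000335), and between *jazQ phyB* and *phyB* it was −0.30 ± 0.10, which was not called (adjusted p = 0.0439). *XTH15* lies at chr4:8137020-8138392 on the minus strand, and 28.8% of its read-length windows of 50 bases are also covered by *AT4G14120* on the other strand. The authors ran RSEM at its default parameters, which do not use strand, so reads of the overlap cannot be assigned to either gene with certainty. *AT4G14120* itself was at 1.43 to 3.49 CPM over the 12 libraries.

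*XTH4* had a log2 change of 0.74 ± 0.06 in *phyB* (1.67-fold, adjusted p = 2.95e-06). Per library it was at 449, 443 and 472 CPM in WT, 423, 426 and 424 in *jazQ*, 723, 756 and 806 in *phyB*, with 597, 626 and 555 in *jazQ phyB*. The 4 genotypes did not overlap, with *jazQ phyB* between *phyB* and WT. *XTH4* was called as higher for *jazQ phyB* against WT (0.38 ± 0.06, adjusted p = 0.000711) and against *jazQ* (0.48 ± 0.06, adjusted p = 0.000204), and as lower against *phyB* (−0.36 ± 0.06, adjusted p = 0.000884). Only *XTH4* and *XTH20* were called in all 3 comparisons of *jazQ phyB*, and none of the 4 calls of *XTH4* was lost under any alternative other than a minimum change of 2-fold.

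*XTH16*, whose coding sequence is 80.5% identical to that of *XTH15*, was at 53.0, 57.0 and 51.8 CPM in WT, 55.5, 56.8 and 63.0 in *jazQ*, 75.1, 75.7 and 73.6 in *phyB*, with 65.6, 63.7 and 72.4 in *jazQ phyB*. Its levels in *phyB* were above those of all other libraries, and those in *jazQ phyB* were above those in WT and *jazQ*. Between *jazQ phyB* and *phyB* the log2 change was −0.15 ± 0.07, which was not called (adjusted p = 0.113). The log2 change against WT was 0.47 ± 0.07 in *phyB* (adjusted p = 0.000213) and 0.32 ± 0.07 in *jazQ phyB* (adjusted p = 0.004). The second call was lost without WT replicate 1 or 3 or *jazQ phyB* replicate 1 or 3 (adjusted p up to 0.0179), and with only both genotypes in the fit (adjusted p = 0.0168).

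*XTH8* was at 22.8, 25.1 and 20.6 CPM in WT, 19.3, 20.6 and 18.0 in *jazQ*, 40.0, 36.6 and 30.9 in *phyB*, with 27.0, 28.9 and 26.7 in *jazQ phyB*. Its libraries ran in 3 steps, with *jazQ phyB* above WT and *jazQ* and below *phyB*. It was called in *phyB* against WT (0.65 ± 0.10, adjusted p = 0.000332) and in *jazQ phyB* against *jazQ* (0.51 ± 0.10, adjusted p = 0.00364). It was not called in *jazQ phyB* against WT (0.27 ± 0.10, adjusted p = 0.0656) or against *phyB* (−0.38 ± 0.10, adjusted p = 0.0118). The call against *jazQ* was lost without *jazQ* replicate 1 or 3 or *jazQ phyB* replicate 1 or 2 (adjusted p up to 0.0178).

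*XTH24*, also known as the meristem-associated gene *MERI5B*, was called in *phyB* against WT with a log2 change of 0.82 ± 0.17 (adjusted p = 0.00336). It was at 273, 252 and 359 CPM in WT, 381, 333 and 447 in *jazQ*, 473, 518 and 576 in *phyB*, with 353, 300 and 493 in *jazQ phyB*. The *phyB* libraries were above those of WT and *jazQ*, while the *jazQ phyB* libraries spread over the range of WT, *jazQ* and *phyB*. Against WT, *jazQ phyB* changed by 0.37 ± 0.17 (adjusted p = 0.153), and the interaction, the change of *jazQ phyB* less those of both parents, was −0.84 ± 0.24 (adjusted p = 0.0399); neither was called. The call in *phyB* was lost without WT replicate 1 or 2 or *phyB* replicate 2 or 3 (adjusted p up to 0.0206).

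*XTH33*, whose product is predicted to keep a membrane anchor, had the largest called log2 change in *phyB* at 1.28 ± 0.28 (2.42-fold, adjusted p = 0.00449), and it was also the least abundant of the called members. It stood at 1.09, 1.07 and 1.12 CPM in WT, 1.97, 1.42 and 1.14 in *jazQ*, 2.74, 2.00 and 3.15 in *phyB*, with 1.80, 3.11 and 2.78 in *jazQ phyB*. These rest on 14 to 28 counts per library in WT and 27 to 59 in *phyB*, and both *phyB* lines lay above WT. In *jazQ phyB* against WT the log2 change was 1.21 ± 0.27 (adjusted p = 0.00668). The *phyB* call was lost without any of the WT libraries or *phyB* replicate 1 or 3 (adjusted p up to 0.0268), and the *jazQ phyB* call without any of the WT libraries, *phyB* replicate 1 or *jazQ phyB* replicate 2 or 3 (adjusted p up to 0.0344) and with only both genotypes in the fit (adjusted p = 0.0138).

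**Figure D3:**
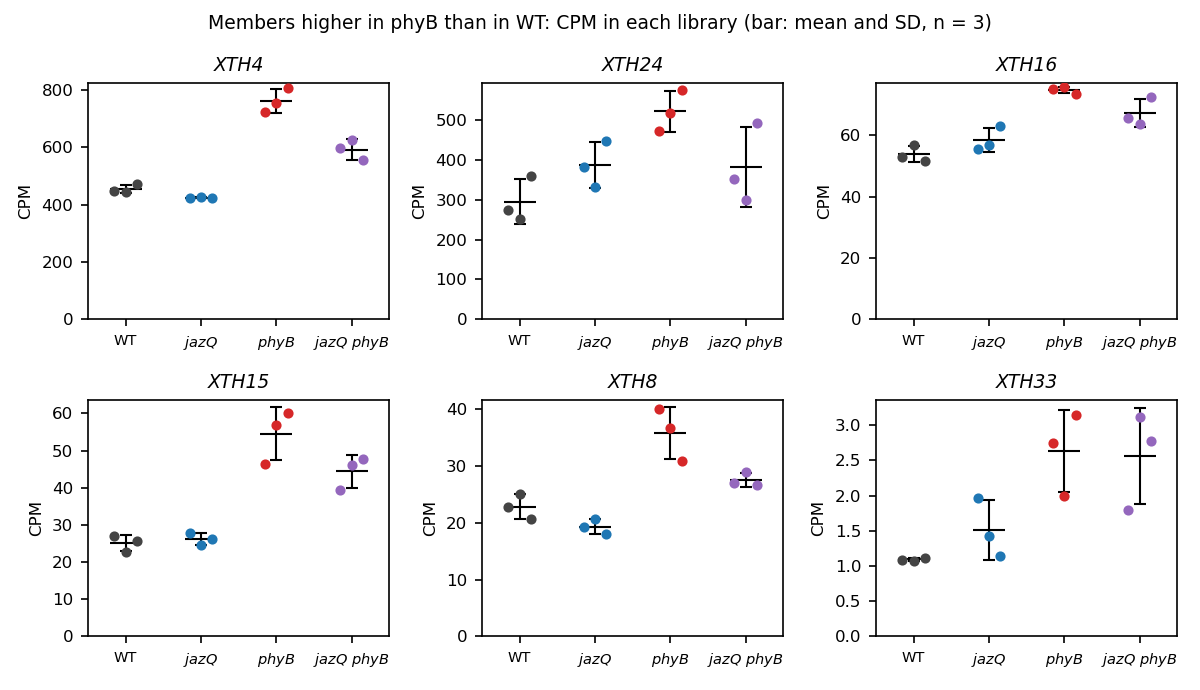
CPM of the 6 members called higher in *phyB* than in WT, with each dot a library and bars for the mean and SD of 3 libraries per genotype. *XTH4* at 723 to 806 CPM and *XTH15* at 46.5 to 60.0 CPM in *phyB* stand clear of WT. The *jazQ phyB* libraries lie lower than those of *phyB* for *XTH4*, *XTH8* and *XTH16*, of which only *XTH4* was called in that comparison.

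Since PIF factors bind the letters CACGTG (the G-box) and CACATG or CATGTG (read on both strands, as each is the reverse complement of the other), the 1000 bases before each RefSeq transcript start were searched. The G-box was in 4 of 33 members (12.1%) against 14.8% of 27438 genes, and the second motif in 13 of 33 (39.4%) against 37.7%. Both shares were near those of all genes. Among the 6 members called higher in *phyB*, *XTH8* held a G-box, *XTH4*, *XTH16* and *XTH33* held the second motif, and *XTH15* and *XTH24* held neither in this window. *XTH33* had 3 matches, more than any other member. Stretches are given for the *XTH8* and *XTH17* matches and for the *XTH33* and *XTH18* matches nearest the start. Those of *XTH17* and *XTH18* are nearly the same, and the motif is in capitals.
XTH8: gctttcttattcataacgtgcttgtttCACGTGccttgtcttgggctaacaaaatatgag
XTH33: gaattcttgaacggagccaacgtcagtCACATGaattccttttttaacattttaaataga
XTH17: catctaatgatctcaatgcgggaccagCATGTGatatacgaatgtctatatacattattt
XTH18: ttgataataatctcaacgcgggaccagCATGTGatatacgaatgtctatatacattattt
They lie at chr1:3880973-3881032 (minus strand, 614 bases before the start), chr1:3481203-3481262 (minus, 194 bases), chr1:24256964-24257023 (plus, 63 bases) and chr4:14827242-14827301 (minus, 63 bases) of TAIR10.1. The *XTH17* and *XTH18* stretches are the same at 54 of 60 bases, including the last 43. A match describes letters and is not a binding site.

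The 2 members called lower in *phyB* were *XTH27* and *XTH31*. Of the other tested members numbered from *XTH27* to *XTH33*, *XTH33* was called higher, *XTH30* changed by 0.36 ± 0.11 (adjusted p = 0.031, not called), and *XTH28* and *XTH32* were not called. *XTH27* (*EXGT-A3*, known for a role in leaf veins) was at 269, 279 and 291 CPM in WT, 280, 283 and 270 in *jazQ*, 205, 226 and 248 in *phyB*, with 235, 219 and 252 in *jazQ phyB*. Every library with the *phyB* mutation was below every library without it. The log2 change was −0.31 ± 0.07 in *phyB* (adjusted p = 0.00812) and −0.25 ± 0.07 in *jazQ phyB* (adjusted p = 0.028, not called). The *phyB* call was lost on the TPM scale (adjusted p up to 0.129), with upper-quartile scaling, with only both genotypes in the fit, and without any of the WT libraries, *jazQ* replicate 1 or 2, *phyB* replicate 1 or 2 or *jazQ phyB* replicate 1 (adjusted p up to 0.0456).

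In *jazQ* against WT, *XTH31* was the only member called, and it was lower. Of all genes tested, 0.997% were called higher and 0.544% lower. *XTH31* was at 107, 88.8 and 82.0 CPM in WT, 57.4, 57.7 and 53.3 in *jazQ*, 73.0, 76.0 and 72.1 in *phyB*, with 82.7, 84.4 and 86.6 in *jazQ phyB*. The *jazQ* libraries were the lowest, the *phyB* libraries lay between them and WT, and the *jazQ phyB* libraries overlapped WT. The log2 change in *jazQ* was −0.73 ± 0.08 (1.66-fold lower, adjusted p = 0.000174), and this call held under every alternative other than a minimum change of 2-fold. In *phyB* the change was −0.34 ± 0.08 (adjusted p = 0.00942), a call that was lost on the TPM scale (adjusted p up to 0.183), with upper-quartile scaling, with only both genotypes in the fit, and without any library but WT replicate 3 or *jazQ* replicate 3 (adjusted p up to 0.0365).

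*XTH31* was also the only member called for the interaction, where it was higher by a log2 value of 0.93 ± 0.12 (adjusted p = 0.000363). Of all genes tested, 1.9% were called higher and 1.7% lower in the interaction. With the *phyB* mutation present, the *jazQ* mutations did not lower it. *jazQ phyB* exceeded *jazQ* by 0.59 ± 0.08 (1.51-fold, adjusted p = 0.00039), and it differed from WT by −0.14 ± 0.08 (adjusted p = 0.278) and from *phyB* by 0.20 ± 0.08 (adjusted p = 0.101), neither of which was called. The interaction stayed called without each library in turn (0.80 to 1.01 on the log2 scale, adjusted p up to 0.00181).

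*XTH32*, the other member of the hydrolase subclade, was at 18.5, 21.0 and 19.3 CPM in WT, 16, 14.3 and 12.0 in *jazQ*, 24.2, 21.9 and 19.3 in *phyB*, with 23.5, 24.1 and 18.4 in *jazQ phyB*. As for *XTH31*, the *jazQ* libraries were the lowest. The log2 change of *jazQ* against WT was −0.46 ± 0.13 and was not called (adjusted p = 0.0557). *jazQ phyB* against *jazQ* was called at 0.64 ± 0.12 (adjusted p = 0.00373). That call was lost without *jazQ* replicate 2 or 3 or *jazQ phyB* replicate 1 or 2 (adjusted p up to 0.0221), and with only both genotypes in the fit (adjusted p = 0.0129).

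In *jazQ phyB*, 7 of 29 members were called higher than in WT and 1 lower. The called shares of all genes tested were 3.75% higher and 6.02% lower. The median log2 change of the members was 0.319, and that of all genes tested was 0.001 (0.103 for all genes on the log2(TPM + 1) scale, where the members had 0.375). Against *jazQ*, 9 members were called higher and 1 lower, with 2.63% and 4.15% of all genes tested, and a median of 0.256 for the members and 0.006 for all genes (0.360 and 0.102 on the log2(TPM + 1) scale). These comparisons share the *jazQ phyB* libraries. Besides *XTH4*, *XTH15*, *XTH16* and *XTH33*, the members called higher than in WT were *XTH17*, *XTH19* and *XTH20*, none of which was called in either parent. None of them was called for the interaction either. It was 0.46 ± 0.16 for *XTH17* (adjusted p = 0.0902), 0.58 ± 0.17 for *XTH19* (adjusted p = 0.0429) and 0.90 ± 0.28 for *XTH20* (adjusted p = 0.0554).

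*XTH17*, *XTH18*, *XTH19* and *XTH20* form a close subgroup known for expression in the root. *XTH20* was at 6.59, 5.06 and 3.70 CPM in WT, 4.81, 3.99 and 6.35 in *jazQ*, 5.99, 5.71 and 5.44 in *phyB*, with 11.2, 10.3 and 9.25 in *jazQ phyB*. Every *jazQ phyB* library was above all 9 others, which overlapped. The log2 change was 0.98 ± 0.19 against WT (1.97-fold, adjusted p = 0.00213), 1.03 ± 0.19 against *jazQ* (adjusted p = 0.00258) and 0.85 ± 0.19 against *phyB* (adjusted p = 0.00511). The call against WT was lost without *jazQ phyB* replicate 1 (adjusted p = 0.0134), that against *jazQ* without *jazQ* replicate 1 or 2 or *jazQ phyB* replicate 1 (up to 0.0164), and that against *phyB* without any of the *phyB* libraries or *jazQ phyB* replicate 1 or 2 (up to 0.0269) and on the TPM scale (up to 0.0236).

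*XTH19* was at 24.5, 28.7 and 31.7 CPM in WT, 20.1, 24.9 and 18.9 in *jazQ*, 33.8, 36.1 and 34.4 in *phyB*, with 36.7, 36.0 and 45.7 in *jazQ phyB*. Both lines with the *phyB* mutation were above WT and *jazQ*. It was called in *jazQ phyB* against *jazQ* at a log2 change of 0.89 ± 0.12 (1.85-fold, adjusted p = 0.000296) and against WT at 0.48 ± 0.12 (adjusted p = 0.00973). The call against *jazQ* held without each library in turn. The call against WT was lost without 9 of the 12 libraries, all but WT replicate 3 and *jazQ* replicates 2 and 3 (adjusted p up to 0.0505), and with RLE scaling, only both genotypes in the fit, or TPM over all genes (up to 0.0237). Against WT, *jazQ* changed by −0.40 ± 0.12 (adjusted p = 0.0881) and was not called.

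*XTH17* followed with 18.4, 19.4 and 17.6 CPM in WT, 17.3, 17.6 and 14.1 in *jazQ*, 19.0, 23.4 and 21.8 in *phyB*, with 26.8, 29.1 and 22.2 in *jazQ phyB*. The *jazQ phyB* libraries were above WT and *jazQ* and overlapped *phyB*. The log2 change was 0.67 ± 0.11 against *jazQ* (adjusted p = 0.00137), which held without each library in turn. Against WT it was 0.50 ± 0.11 (adjusted p = 0.0055), a call lost without any of the WT libraries or *jazQ phyB* replicate 1 or 2 (adjusted p up to 0.0299), and with only both genotypes in the fit (adjusted p = 0.0115). *XTH18*, whose motif stretch nearly matches that of *XTH17*, was at 20.3, 17.2 and 39.4 CPM in WT, 28.9, 24.8 and 26.9 in *jazQ*, 26.8, 32.3 and 30.1 in *phyB*, with 27.8, 26.4 and 28.2 in *jazQ phyB*. It was not called in any of the 6 comparisons (adjusted p 0.521 to 0.945), and its WT libraries spanned the range of all others. Whether *XTH17* and *XTH18* differ in their changes was not tested.

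*XTH24*, *XTH18* and *XTH19* lie side by side on the minus strand of chromosome 4, at chr4:14819192-14820595, chr4:14825757-14827211 and chr4:14828712-14830224 (TAIR10.1). Their coding sequences are close (87.6% identity between *XTH18* and *XTH19*). Of the windows, 1.57% of those of *XTH18* and 1.63% of those of *XTH19* also occur letter for letter in another gene. Windows that differ by a few bases were not counted, so how many reads could be shared was not tested. *XTH24* was called in *phyB*, *XTH19* in *jazQ phyB*, and *XTH18* in no comparison, and whether the 3 neighbours differ in their changes was not tested.

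*XTH14*, a gene of root tips and root hairs, was at 35.8, 25.4 and 24.2 CPM in WT, 26.2, 19.3 and 30.6 in *jazQ*, 19.5, 27.0 and 30.0 in *phyB*, with 42.3, 40.7 and 47.3 in *jazQ phyB*. As for *XTH20*, every *jazQ phyB* library was above the 9 others. The log2 change was 0.78 ± 0.18 against *jazQ* (adjusted p = 0.00987) and 0.76 ± 0.18 against *phyB* (adjusted p = 0.00743), and it was 0.59 ± 0.17 against WT, which was not called (adjusted p = 0.0292). Its interaction of 0.94 ± 0.25 was not called (adjusted p = 0.0323). The call against *jazQ* was lost without any of the *jazQ phyB* libraries, *jazQ* replicate 1 or 2, *phyB* replicate 2 or 3 or WT replicate 2 (adjusted p up to 0.0369), and on the TPM scale over all genes (adjusted p = 0.0209). The call against *phyB* was lost without any of the *jazQ phyB* libraries, *phyB* replicate 1 or 2, *jazQ* replicate 1 or WT replicate 2 (up to 0.0387) and on the TPM scale (up to 0.0341). Its neighbour *XTH23* (*XTR6*) was at 7.56, 7.82 and 14.2 CPM in WT, 13.9, 13.2 and 11.6 in *jazQ*, 12.0, 11.3 and 18.7 in *phyB*, with 8.30, 10.8 and 9.79 in *jazQ phyB*, and was not called (adjusted p 0.0791 to 0.939).

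Of 18 root markers, 17 were tested. In *jazQ phyB*, 7 of the 17 were called higher both against WT and against *jazQ*, none was called lower, and 10 were not called, among them the root hair gene *EXPA7*. Among all genes tested, 3.75% were called higher against WT and 2.63% against *jazQ*. The 7 markers were *COBL9*, *EXPA18*, *PRP3* and *LRX1*, which act in root hairs, *CASP1* and *MYB36* of the endodermis, and *SHR* of the stele. *EXPA18* rose by a log2 value of 0.87 ± 0.12 against WT (adjusted p = 0.000219) and *PRP3* by 0.95 ± 0.18 (adjusted p = 0.00186). Against *phyB*, *EXPA18* and *PRP3* were called higher, beside 6.01% of all genes. In *phyB* against WT, *CASP1* and *CASP2* were called higher and *IRT1* lower, beside 4.7% and 7.06% of all genes. In *jazQ* against WT no root marker was called. Summed without the far more abundant *BGLU23*, the root markers reached 225.0 to 256.1 CPM in *jazQ phyB*, against 179.0 to 207.0 in WT, 177.0 to 205.8 in *jazQ* and 184.1 to 204.2 in *phyB*. The sum with *BGLU23* was 4890 to 5214 CPM in WT, 5406 to 6329 in *jazQ*, 4576 to 5056 in *phyB*, with 5325 to 6192 in *jazQ phyB*. *NRT2.1* was at 0 to 3 counts in every library. Of 10 shoot markers, *TCP3* alone was called lower in *jazQ phyB* against WT, and *YAB5*, *TCP10* and *FAMA* in *phyB*. The shares of all genes called lower there were 6.02% and 7.06%. In *jazQ phyB* against *phyB*, *FAMA* was called higher and *TCP3* lower, beside 6.01% and 5.76% of all genes. The shoot markers summed to 204.1 to 216.0 CPM in WT, 195.6 to 206.3 in *jazQ*, 168.9 to 187.9 in *phyB* and 175.4 to 189.3 in *jazQ phyB*. The part of a change in root or shoot share in the *XTH* results was not tested.

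**Figure D4:**
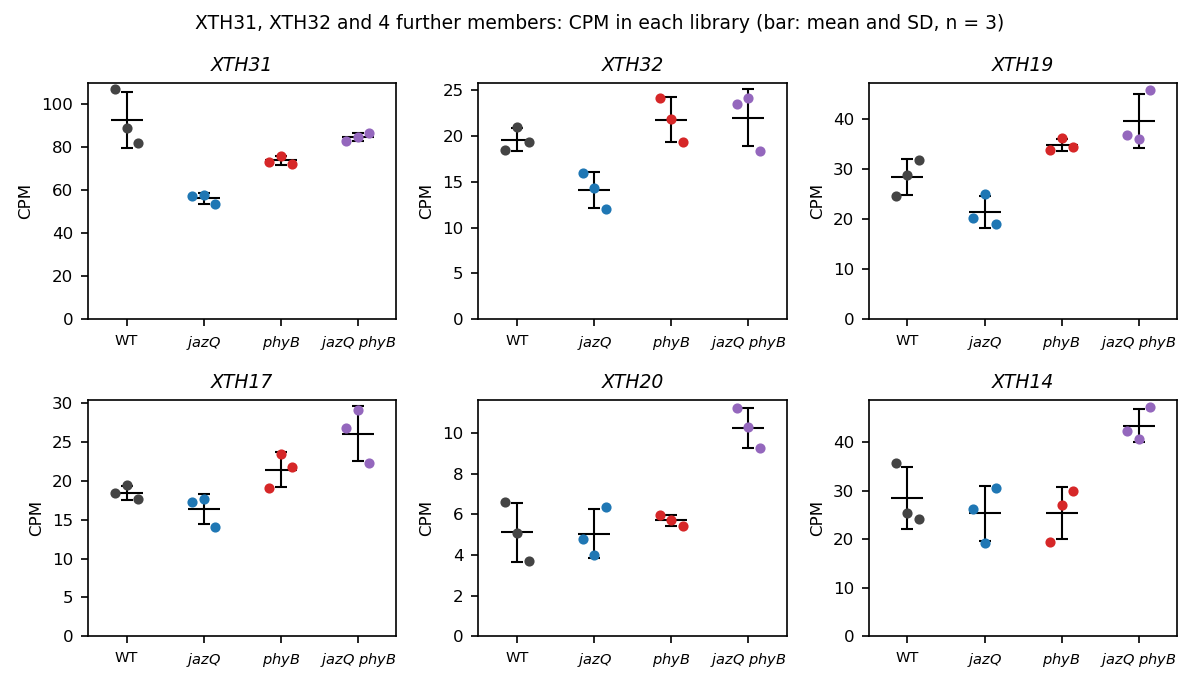
CPM of *XTH31*, *XTH32*, *XTH19*, *XTH17*, *XTH20* and *XTH14*, with each dot a library and bars for the mean and SD of 3 libraries per genotype. *XTH31* is lowest in *jazQ* (53.3 to 57.7 CPM), and *XTH20* and *XTH14* are highest in *jazQ phyB* (9.25 to 11.2 and 40.7 to 47.3 CPM).

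In *jazQ phyB* against *phyB*, 2 members were called higher, *XTH14* and *XTH20*, and 2 lower, *XTH4* and *XTH5*. The called shares of all genes tested were 6.01% and 5.76%. *XTH5* (*EXGT-A4*) was at 9.03, 7.66 and 8.87 CPM in WT, 7.12, 8.12 and 7.85 in *jazQ*, 10.9, 10.4 and 8.64 in *phyB*, with 6.46, 6.76 and 7.50 in *jazQ phyB*. The *phyB* libraries were above those of *jazQ phyB* and overlapped WT. The log2 change was −0.53 ± 0.12 (adjusted p = 0.00577). The call was lost without *phyB* replicate 1 or 2 or *jazQ phyB* replicate 1 or 2 (adjusted p up to 0.0321), with only both genotypes in the fit and on the TPM scale over all genes (up to 0.0105).

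*XTH28*, 77.7% identical to *XTH27* in its coding sequence, was the member called lower in *jazQ phyB* than in WT, at −0.32 ± 0.08 (adjusted p = 0.00998, just past the threshold). It was at 94.8, 107 and 90.5 CPM in WT, 87.2, 88.2 and 84.7 in *jazQ*, 79.4, 84.0 and 90.5 in *phyB*, with 76.5, 72.5 and 85.5 in *jazQ phyB*. The call was lost without any library but WT replicate 3 or *jazQ phyB* replicate 3 (adjusted p up to 0.0507), and on the TPM scale, with upper-quartile scaling and with only both genotypes in the fit (up to 0.129). *XTH6*, called lower in *jazQ phyB* than in *jazQ* (−0.51 ± 0.09, adjusted p = 0.00208), was at 95.6, 113 and 118 CPM in WT, 138, 132 and 110 in *jazQ*, 89.3, 84.5 and 84.1 in *phyB*, with 87.6, 95.2 and 83.4 in *jazQ phyB*. Both lines with the *phyB* mutation were below WT and *jazQ*. The changes against WT were −0.34 ± 0.09 in *phyB* (adjusted p = 0.017) and −0.29 ± 0.09 in *jazQ phyB* (adjusted p = 0.0381), neither of them called. The call against *jazQ* was lost without *jazQ* replicate 1 or *jazQ phyB* replicate 1 (adjusted p up to 0.0139) and on the TPM scale over all genes (adjusted p = 0.0156).

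In all, 16 of the 29 tested members were called in at least 1 of the 6 comparisons and 13 in none, and 23.1% of all genes tested were called in at least 1. The uncalled members include *XTH7*, *XTH9* and *XTH22* from the top of the abundance order. *XTH7* was at 373, 311 and 283 CPM in WT, 288, 222 and 301 in *jazQ*, 272, 289 and 304 in *phyB*, with 367, 373 and 312 in *jazQ phyB*, with the *jazQ phyB* libraries above those of *jazQ* and *phyB* (against *jazQ* 0.38 ± 0.12, adjusted p = 0.0457). *XTH9* was at 169, 204 and 182 CPM in WT, 170, 178 and 193 in *jazQ*, 206, 214 and 227 in *phyB*, with 193, 209 and 208 in *jazQ phyB*, with *phyB* just above WT (0.22 ± 0.07, adjusted p = 0.047). *XTH22*, whose transcript answers to touch within minutes, was at 101, 159 and 340 CPM in WT, 231, 274 and 181 in *jazQ*, 189, 219 and 279 in *phyB*, with 134, 137 and 155 in *jazQ phyB*. Its spread among WT libraries was wider than any difference between genotype means.

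*XTH12*, *XTH13* and *XTH26* also varied among libraries of a genotype and were not called. *XTH26*, a root hair gene, was at 6.55, 3.14 and 2.41 CPM in WT, 1.91, 0.406 and 4.78 in *jazQ*, 1.88, 3.49 and 5.66 in *phyB*, with 10.3, 5.11 and 12.6 in *jazQ phyB*. The lowest of these values rests on 6 counts. Its log2 change of 2.00 ± 0.56 in *jazQ phyB* against *jazQ* was the largest of the family between genotypes but not called (adjusted p = 0.028), and leaving out 1 library moved it from 1.52 to 2.95. *XTH12* changed by 1.26 ± 0.36 in the same comparison (adjusted p = 0.0325). In *jazQ* against WT the largest change was that of *XTH25*, at 1.17 ± 0.28 (adjusted p = 0.0305, not called), on 10 to 33 counts per library in WT and 32 to 41 in *jazQ*.

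*XTH21* lies beside *PHYB* on chromosome 2 (*AT2G18800* and *AT2G18790*). It was at 4.77, 6.21 and 7.41 CPM in WT, 8.34, 8.32 and 6.0 in *jazQ*, 8.59, 6.08 and 6.83 in *phyB*, with 8.39, 7.76 and 6.83 in *jazQ phyB*. The genotypes overlapped, and it was not called in any comparison (adjusted p 0.217 to 0.956). Of its windows, 7.15% also occur in the pseudogene *AT2G12660*.

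Genes that make and trim xyloglucan were listed beside the family. Of 15 synthesis genes, among them the glucan synthases *CSLC4* to *CSLC12*, the xylosyltransferases *XXT1* to *XXT5* and the galactosyltransferases *MUR3* and *XLT2*, none was called in *jazQ*, *phyB* or *jazQ phyB* against WT. In *phyB* against WT 6 of the 15 had a p below 0.05 before adjustment, beside 34.9% of all genes tested, and 4 of the 15 did in *jazQ* and in *jazQ phyB*, beside 17.2% and 30.6%. On the log2(TPM + 1) scale, limma-trend called 9 of the 19 synthesis and trimming genes higher in *phyB*, where edgeR called 2, both of them trimming genes. That test called 13.9% of all genes higher, with a median of all genes at 0.137. By edgeR, *XLT2* was the only one of the 15 synthesis genes called in any comparison, higher in *jazQ phyB* than in *phyB* (0.53 ± 0.10, adjusted p = 0.00231). It was at 20.2, 18.2 and 17.6 CPM in *jazQ phyB* and 13.8, 13.9 and 11.5 in *phyB*. That call was lost without *phyB* replicate 3 or *jazQ phyB* replicate 1 (adjusted p up to 0.0159).

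Of the 4 enzymes listed that trim the side chains or chain ends of xyloglucan in the wall, 3 were called in some comparison. *XYL1*, the α-xylosidase, was at 222, 224 and 219 CPM in WT, 220, 224 and 211 in *jazQ*, 394, 383 and 407 in *phyB*, with 314, 309 and 267 in *jazQ phyB*. Like *XTH4*, it was highest in *phyB*, with *jazQ phyB* between *phyB* and WT. The log2 changes were 0.83 ± 0.06 in *phyB* (adjusted p = 1.83e-06), 0.42 ± 0.06 in *jazQ phyB* (adjusted p = 0.00046) and −0.41 ± 0.06 in *jazQ phyB* against *phyB* (adjusted p = 0.000431). Against *jazQ*, *jazQ phyB* was higher by 0.44 ± 0.06 (adjusted p = 0.000477).

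*BGAL10*, the β-galactosidase of xyloglucan, was at 38.8, 34.6 and 36.7 CPM in WT, 45.6, 48.4 and 48.8 in *jazQ*, 61.1, 65.9 and 58.0 in *phyB*, with 24.6, 25.2 and 30.9 in *jazQ phyB*. It was thus highest in *phyB* and lowest in *jazQ phyB*, with no overlap of the 4 genotypes. The log2 change was 0.74 ± 0.08 in *phyB* (adjusted p = 3.3e-05) and −1.20 ± 0.08 in *jazQ phyB* against *phyB* (2.30-fold lower, adjusted p = 5.65e-07), with an interaction of −1.57 ± 0.12 (adjusted p = 8.45e-06). Against *jazQ* it was −0.83 ± 0.09 (adjusted p = 4.45e-05). Against WT it was −0.46 ± 0.09 (adjusted p = 0.00213), a call that was lost on the TPM scale and with only both genotypes in the fit (up to 0.0404), and without WT replicate 1 or *jazQ phyB* replicate 1 or 2 (up to 0.0153).

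*AXY8*, the α-fucosidase, was called for the interaction at −0.75 ± 0.13 (adjusted p = 0.00291), and in *jazQ phyB* against *jazQ* (−0.44 ± 0.09, adjusted p = 0.00535) and *phyB* (−0.47 ± 0.09, adjusted p = 0.0023). Its CPM were 48.8, 51.4 and 63.1 in WT, 64.9, 69.3 and 63.5 in *jazQ*, 68.3, 71.3 and 62.0 in *phyB*, with 47.3, 45.6 and 52.5 in *jazQ phyB*. Both parents lay above *jazQ phyB*. The call against *jazQ* was lost on the TPM scale (up to 0.0444) and without any of the *jazQ* libraries or *jazQ phyB* replicate 1 or 2 (up to 0.0281), that against *phyB* without *phyB* replicate 1 or 2 or *jazQ phyB* replicate 1 or 2 (up to 0.015), and the interaction without WT replicate 2, *phyB* replicate 2 or *jazQ phyB* replicate 1 (up to 0.0117). The fourth, *AT5G20950*, was not called in any comparison.

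**Figure D5:**
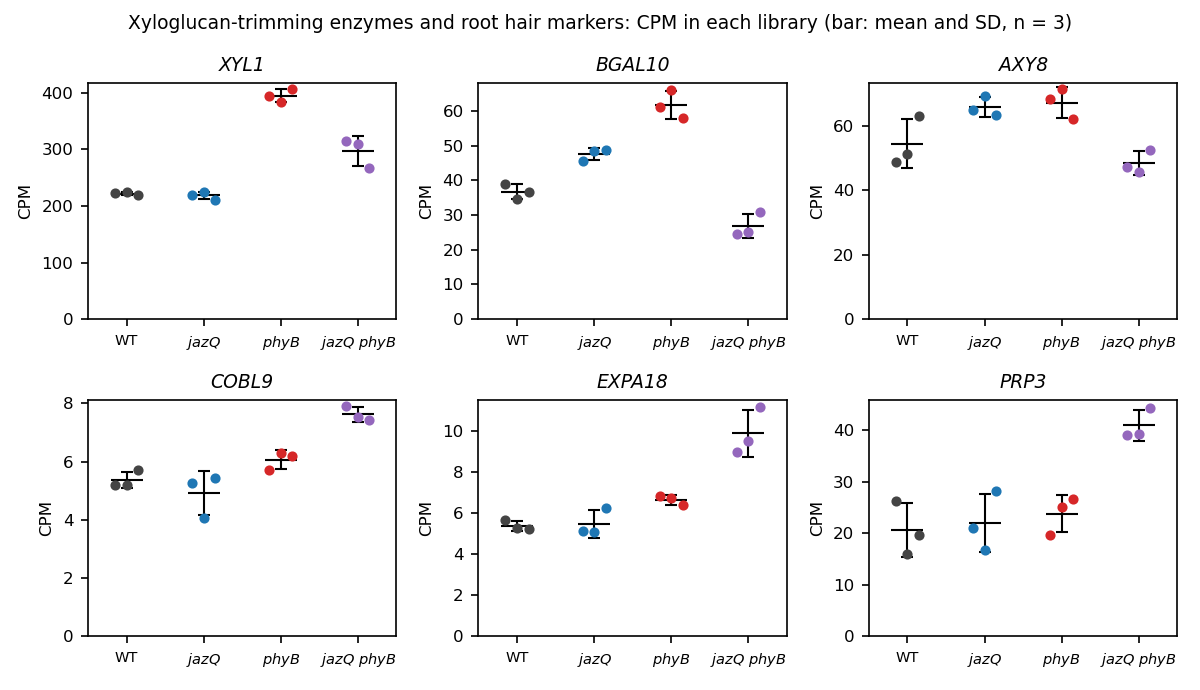
CPM of the trimming enzymes *XYL1*, *BGAL10* and *AXY8* and of the root hair markers *COBL9*, *EXPA18* and *PRP3*, with each dot a library and bars for the mean and SD of 3 libraries per genotype. *XYL1* is highest in *phyB* (383 to 407 CPM), and *BGAL10* is lowest in *jazQ phyB* (24.6 to 30.9 CPM). The 3 markers shown are highest in *jazQ phyB*, and they were picked from the 7 of 17 root markers called higher there against WT. The root hair gene *EXPA7* was not called.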

How the data were processed

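The authors sequenced 50-base single-end reads, 6 libraries to a lane, and per the labels and methods assigned them to TAIR10 gene models with RSEM 1.2.11. They deposited an expected count per gene and library, all whole numbers (100%), and a TPM, scaled for length and depth. RSEM ran at its default parameters, which do not use strand. The study's methods describe the 3 RNA samples of a genotype as independent biological replicates, with WT and mutants on shared plates.

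Counts were scaled by TMM and fitted with edgeR 4.0.16 (R 4.3.3) to all 12 libraries without blocks, after filterByExpr with a minimum count of 10. Benjamini-Hochberg adjustment ran over 20957 genes, within each of 6 comparisons. Standard errors and SDs include the spread between libraries, and the floor covers counting error only. Genomic positions and sequences are from RefSeq's TAIR10.1, matched by locus for all 33 members. Alternatives were DESeq2 1.42.0, other normalizations and filters, limma-trend (limma 3.58.1) on log2(TPM + 1) and log2(TPM + 0.1), a replicate block, other thresholds, only the 2 genotypes compared, and each library left out. On simulated data for *jazQ* against WT (20810 genes), the test found 79.5% of 200 genes with a true log2 change of 1 and made 3 false calls. The changed genes were drawn from those with means above 1 CPM, with the spread estimated from these data. Smaller changes were not simulated.

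The members and lists were chosen with earlier results of these data known. Values per library are given for members called in any comparison, the 5 with the highest TPM in WT, *XTH21*, and chromosomal neighbours of called members. *XTH9*, *XTH26*, the root and shoot markers named, and the log2 changes given for uncalled members were added after their values were seen. Of the 47 list genes, 45 had the symbol in the tables or RefSeq.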

Additional observations from a re-analysis of the deposited data

Results flagged for a closer look

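*XTH31* was singled out because the effect of the *jazQ* mutations on it differed between the PHYB and *phyB* backgrounds by edgeR's test of the difference itself. The interaction was 0.93 on the log2 scale (adjusted p = 0.000363), and over the alternatives that change the tool, filter or scale the adjusted p ran from 3.82e-10 to 0.00452. Groups of 3 libraries were not examined for outlying samples.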

How the results depend on the processing

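No called member or trimming gene changed direction under any alternative. The counts of calls in this section show only how calls moved with the setting. Except where a share is given, they were not set beside the share of all genes called at the same setting. Requiring at least 2-fold left 0 members in *jazQ* against WT, 2 in *phyB*, 1 in *jazQ phyB*, 1 in *jazQ phyB* against *jazQ*, 0 against *phyB* and 0 for the interaction. An adjusted p below 0.05 gave 2 members in *jazQ* against WT, 7 in *jazQ phyB* against *phyB* and 4 for the interaction. In *jazQ phyB* against *phyB*, limma-trend gave 2 members on either TPM scale and 1 over all genes. Only the 2 genotypes compared in the fit left 4 members in *jazQ phyB* against WT, and DESeq2 called 2 for the interaction. The TPM scale moved the median of all genes by 0.137 (log2) in *phyB* against WT, and the cause was not tested. Leaving out 1 library gave 1 to 2 members in *jazQ*, 4 to 9 in *phyB*, 3 to 7 in *jazQ phyB* against WT, 5 to 10 against *jazQ*, 1 to 5 against *phyB* and 1 to 3 for the interaction.

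WT and mutants shared plates, but no source used here ties a replicate number to a plate, and the deviations of libraries with the same number did not correlate for every pair (r = −0.17 to 0.262). For *jazQ* and *jazQ phyB* the same-number r was 0.057, 0.177 and 0.262, each above the highest r with another number (0.019, 0.05 and −0.096). A replicate block gave 2 members for the interaction and 1, 7, 6, 9 and 5 members in the other comparisons. With it *XTH33* and *XTH28* were not called in *jazQ phyB* against WT (adjusted p = 0.0127 and 0.0143), nor *XTH31* in *phyB* (0.0106), *XTH14* against *jazQ* (0.0104) or *XTH5* against *phyB* (0.0113), while *XTH24* (0.00223) and *XTH8* (0.00366) were called in *jazQ phyB* against *phyB* and *XTH24* for the interaction (0.00132).

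The xyloglucan synthesis and trimming list was put through the same alternatives after the data were seen. At least 2-fold left 0 genes in *phyB* and 0 in *jazQ phyB* against WT, 0 against *jazQ*, 1 against *phyB* and 1 for the interaction. An adjusted p below 0.05 gave 2 in *jazQ*, 7 in *phyB*, 4 in *jazQ phyB*, 5 against *jazQ* and 4 for the interaction. The shares of all genes called at these thresholds are not given, so whether the list differs from all genes there was not tested. DESeq2 called 1 in *jazQ*. In *phyB*, limma-trend called 9, 9 and 8 with log2(TPM + 1), log2(TPM + 0.1) and all genes, all higher, against 2 by edgeR. With log2(TPM + 1), limma-trend called 13.9% of all genes tested higher. In *jazQ phyB* against WT, limma-trend over all genes called 1, as did the fit of only the 2 genotypes. Without 1 library the list gave 0 to 2, 2 to 4, 1 to 2, 2 to 4, 2 to 4 and 1 to 2 calls in the 6 comparisons.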
